A study of Danio rerio with 4 samples.

Results

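The chemokine Cxcl12 and its receptor Cxcr4 were examined in sorted zebrafish olfactory sensory neurons (OSNs). The 4 genes, cxcr4a, cxcr4b, cxcl12a and cxcl12b, were taken by symbol, and all 4 were found among the 29029 genes measured. RNA came from FAC sorted cells of olfactory epithelia dissected from Tubingen/TLF embryos at 48 hpf, with 2 libraries from OMP:RFP embryos and 2 from TRPC2:Venus embryos. In these lines an omp promoter drives RFP in ciliated OSNs and a trpc2 promoter drives Venus in microvillous OSNs. RNA was amplified by in vitro transcription through 1 round for the OMP class and 2 rounds for the TRPC2 class, and the TRPC2 libraries were made from far fewer cells, so class, cell number and amplification cannot be told apart.

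Cxcl12 is a secreted chemokine, and Cxcr4 is the G protein coupled receptor through which migrating cells and growing axons respond to it. A further receptor, Ackr3, binds and internalizes Cxcl12 and so limits how much ligand reaches Cxcr4. Zebrafish carry duplicates, marked a and b, of each of these genes. In the zebrafish olfactory placode, cells that express cxcr4b move towards tissue that expresses cxcl12a, and loss of this signal leaves the placode badly assembled and the sensory axons misrouted. cxcr4a is best known in zebrafish from blood vessels and, with cxcl12b, from the gastrula.

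Gene counts summed to between 49483362 and 84599818 reads per library, and 61.6% to 88.0% of the genes had a read. Levels are given as RPM, reads scaled to the total of their library. A single read was worth between 0.009 and 0.0119 RPM, and counting intervals do not cover the amplification. The class labels were checked with ompb, at 185 and 218 RPM in OMP against 0.24 and 6.95 RPM in TRPC2, and with trpc2b, at 2.8 and 3.82 RPM in OMP against 13.5 and 24.2 RPM in TRPC2. The duplicate trpc2a, at 11.4 and 0.21 RPM in TRPC2, was lower in the second of these libraries than in either OMP library (1.44 and 1.56 RPM). The TRPC2 libraries also stood apart from each other. Over 7485 genes above 10 RPM on average, the median difference between them was 0.848 on the log2(RPM + 0.5) scale, against 0.244 between the OMP libraries.

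**Figure D1:**
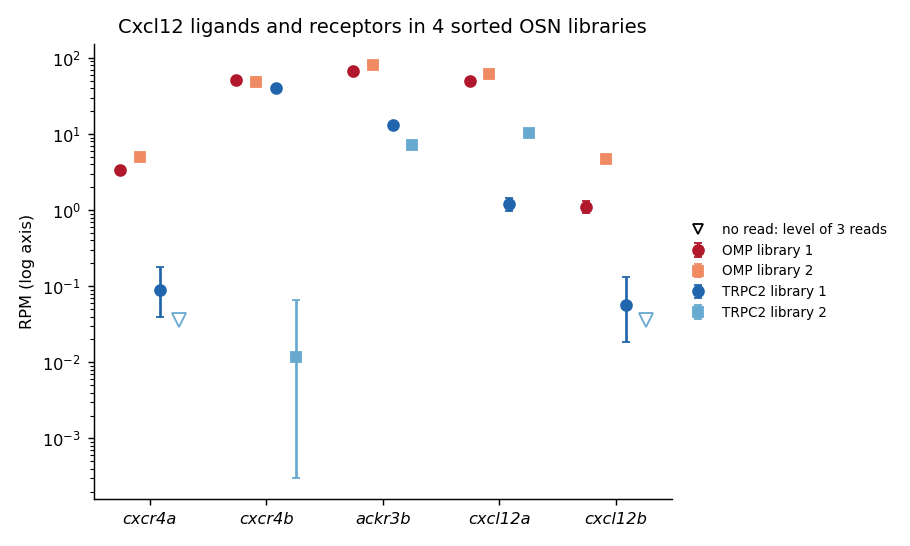
RPM (log axis) of the Cxcr4 receptor genes, the scavenging receptor ackr3b and the Cxcl12 ligand genes in each of the 4 libraries, with exact Poisson 95% intervals of the read count, which cover counting error only. cxcr4b lies between 40.6 and 51.2 RPM in 3 libraries and at 1 read in the second TRPC2 library. Open triangles mark genes with no read, drawn at the level of 3 reads.

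The receptor gene cxcr4b was at 51.2 and 48.4 RPM in OMP, from 5537 and 5392 reads. In TRPC2 it was at 40.6 RPM in the first library, from 3584 reads, and at 0.01 RPM in the second, from 1 read (exact Poisson 95% interval 0.0253 to 5.57 reads). The first TRPC2 library thus lay close to the OMP pair, and the second held almost none of this transcript. The paper reports fewer sorted cells for its second Venus sample than for its first, the fewest of all its samples. If the sample numbers match the libraries, the library with 1 read came from the fewest cells. The part of cell number in this value was not tested. OMP averaged 49.8 ± 2.01 RPM (SD, n = 2), and TRPC2 20.3 ± 28.7 RPM (SD, n = 2), an SD above its mean. Between the TRPC2 libraries the ratio was 3420, with a 95% counting interval of 613 to 135000. The deposited RPM put cxcr4b above TRPC2 in both OMP libraries. Over the gene total of each library it was at 81.3 and 63.7 CPM in OMP and at 72.4 and 0.0166 CPM in TRPC2, so that the classes overlapped.

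The near absence of cxcr4b from 1 library was set beside other genes, with limits chosen after its values were seen. Of the 2355 genes at 30 RPM or more in the other 3 libraries, 1 gene, or 0.0425%, had at most 1 read in the second TRPC2 library, and it was cxcr4b. The same count was 0 of 2131 genes for the first TRPC2 library, and 0 for each OMP library. With the lower limit at 20 RPM there were 2 such genes of 3381, cxcr4b and dld, a Notch ligand, and with 10 RPM there were 9 of 5438. For the first TRPC2 library the counts at those limits were 2 of 3040 and 14 of 5011. Where up to 100 reads were allowed, 5 genes at 30 RPM or more elsewhere were at or under that limit in the second TRPC2 library. Besides cxcr4b these were dlx5a, a homeobox factor of the olfactory placode, mcm6, a subunit of the replicative helicase, esrp1, a splicing regulator of epithelia, and b3gnt5a, a glycosyltransferase.

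**Figure D2:**
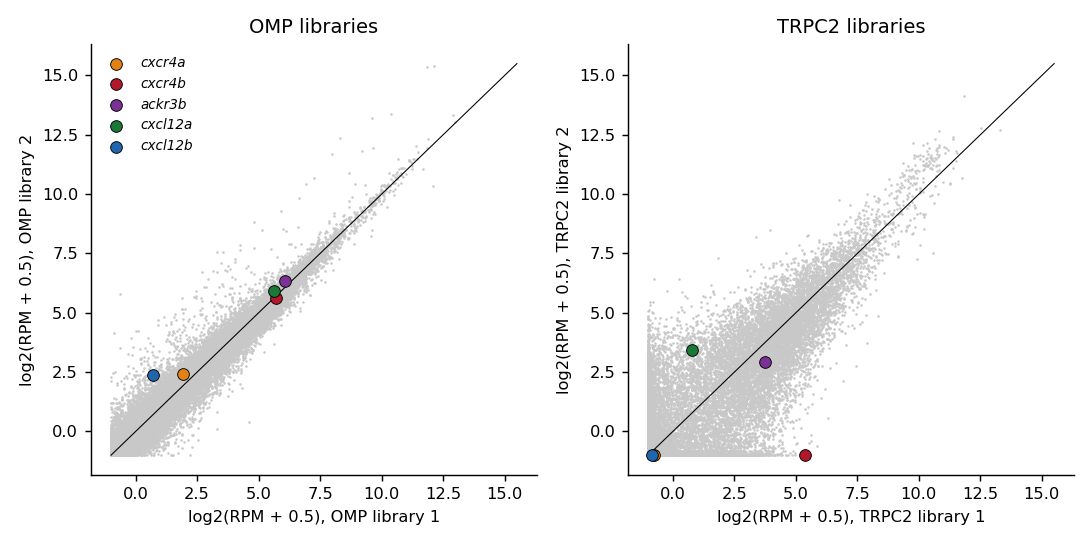
Levels of all 29029 genes, as log2(RPM + 0.5), in the OMP libraries (left) and the TRPC2 libraries (right), with the line of equality. The OMP libraries place all 5 marked genes near the line, cxcl12b farthest from it. In TRPC2, cxcr4b lies on the lower edge, far to the right, and cxcl12a above the line, while cxcr4a and cxcl12b overlap at the lower left corner.

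The duplicate receptor gene cxcr4a was at 3.34 and 4.92 RPM in OMP, from 361 and 548 reads. In TRPC2 it had 8 reads in the first library, or 0.09 RPM, and 0 in the second, where 3 reads correspond to 0.0356 RPM. The classes therefore did not overlap, with means of 4.13 ± 1.12 RPM (SD, n = 2) and 0.045 ± 0.0636 RPM (SD, n = 2). In the RefSeq annotation of a later assembly cxcr4a overlaps ical1. The strand setting of the counts is not given in the sources used here, so reads from the overlap may have been counted for either gene. ical1 was at 20.8 and 24.7 RPM in the OMP pair and 5.48 and 3.84 RPM in the TRPC2 pair.

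Reads of the receptor pair fell mostly on cxcr4b. It held 93.9% of the cxcr4a and cxcr4b reads in the first OMP library (Clopper-Pearson 95% interval 93.2% to 94.5%) and 90.8% in the second (90% to 91.5%). In the first TRPC2 library its share was 99.8% (99.6% to 99.9%). The second TRPC2 library had a single read of the pair, which sets no useful share. The OMP libraries averaged 92.3% ± 2.2 (SD, n = 2). An exact two-sided permutation test of the share between classes gave p = 0.333 (n = 2 per class), the smallest value that 2 libraries against 2 can give. With 2 libraries per class the test cannot decide the question, and the second TRPC2 share that enters it rests on a single read. These are shares of reads, not corrected for transcript length, and do not give the relative amounts of the transcripts.

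The scavenging receptor gene ackr3b was read in all 4 libraries. It was at 66.2 and 79.9 RPM in the OMP pair and 13 and 7.19 RPM in the TRPC2 pair. The classes did not overlap, and the first TRPC2 library was above the second by a ratio of 1.81 (95% counting interval 1.64 to 2). On the log2 scale used above this was a difference of 0.811, below the median of 0.848 between the TRPC2 libraries. Of the genes above 10 RPM on average, 48.2% differed less, so the gap was an ordinary one for these libraries. A second ACKR3 entry, which the files name ACKR3_(2_of_2) and which was looked up after ackr3b had been seen, had 6 and 38 reads in OMP and 0 and 1 in TRPC2, too few for the class test.

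Among the ligands, cxcl12a was at 49.1 and 60.5 RPM in OMP, from 5310 and 6743 reads. It was at 1.2 RPM in the first TRPC2 library, from 106 reads, and at 10.3 RPM in the second, from 871 reads. Here the second TRPC2 library was the higher one, by a ratio of 8.61 (95% counting interval 7.03 to 10.6). This order was opposite to that of cxcr4b and ackr3b, although the ackr3b gap was an ordinary one. For cxcl12a, 92.4% of the genes above 10 RPM on average differed less between the TRPC2 libraries, and for cxcr4b 99.9%. The class means were 54.8 ± 8.05 RPM (SD, n = 2) and 5.76 ± 6.46 RPM (SD, n = 2), with no overlap of the classes.

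The duplicate ligand cxcl12b was at 1.11 and 4.7 RPM in OMP, from 120 and 523 reads. It had 5 reads in the first TRPC2 library, or 0.06 RPM, and 0 in the second. The OMP libraries differed from each other by a ratio of 4.23 (95% counting interval 3.46 to 5.2). Of the genes above 10 RPM on average, 98.9% differed less between them on the log2(RPM + 0.5) scale. cxcl12b lies below that level, so the genes it is set beside are better expressed than it is. The share of cxcl12a in the ligand reads was 97.8% and 92.8% in OMP and 95.5% and 100% in TRPC2. The classes overlapped, and an exact two-sided permutation test gave p = 0.667 (n = 2 per class), where 2 libraries against 2 cannot go below 0.333.

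Within a library, receptor and ligand reads were set against each other, since such a ratio needs no scaling between libraries. The ratio of cxcr4b to cxcl12a reads was 1.04 (95% counting interval 1 to 1.08) in the first OMP library and 0.8 (0.771 to 0.829) in the second. It was 33.8 (27.9 to 41.4) in the first TRPC2 library and 0.00115 (2.9e-05 to 0.00641) in the second. The ratio was thus above that of the OMP pair in the first TRPC2 library and below it in the second, where the receptor had 1 read. The ratio of ackr3b to cxcl12a reads ran the same way over the TRPC2 libraries, at 10.8 and 0.696, and was 1.35 and 1.32 in OMP. Transcript length enters each ratio and would cancel between libraries of a class only where amplification acted alike on both, which was not tested. OMP and TRPC2 differed in rounds of amplification, and whether it cancels between them was not tested.

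The quasi-likelihood test of edgeR was then applied to the counts, with p-values adjusted over all 21026 genes that passed its filter. None of the 4 genes passed an adjusted p of 0.05. Over all genes 0 passed, or 0%, while an unadjusted p under 0.05 was reached by 4907 genes higher in OMP, or 23.3%, and by 1510 higher in TRPC2, or 7.18%. Of the 4 chemokine genes, 0 had an unadjusted p under 0.05. The log2 fold change of OMP over TRPC2 was 5.73 for cxcr4a (standard error 2.22, adjusted p = 0.169 from edgeR), 0.56 for cxcr4b (2.29, adjusted p = 0.907), 2.43 for cxcl12a (1.09, adjusted p = 0.22) and 5.89 for cxcl12b (2.27, adjusted p = 0.167). For ackr3b it was 2.09 (standard error 0.45), and the p of edgeR was 0.0068 before adjustment and 0.0721 as an adjusted p. These standard errors are approximate, the absolute log2 fold change over the square root of the F statistic of the test. The median over all tested genes was 0.49, so that cxcr4b lay 0.067 above the median gene, and the other 3 members lay 1.94 to 5.4 above it. With library totals alone for scaling, which moved that median by 0.64, cxcr4b lay below it (-0.13), as it did with no filter on low counts (-0.50). The value for cxcr4b also depended on the method, at 3.46 with limma on log2(RPM + 0.5), 4.56 with limma on log2(RPM + 0.1) and 4.32 with the replicate number as a block in edgeR, or 2.55, 3.06 and 3.14 above the median of those fits. None of these passed (adjusted p from 0.301 to 0.335 in limma and edgeR).

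The cxcr4a and cxcr4b reads together gave 0.67 ± 2.29 (log2 fold change and its standard error, edgeR adjusted p = 0.887), and the cxcl12a and cxcl12b reads together gave 2.5 ± 1.07 (edgeR adjusted p = 0.206). For the receptor sum limma gave 3.57 and 4.67 with the larger and the smaller pseudocount, and the block gave 4.43, none past 0.05. In RPM each OMP library exceeded each TRPC2 library for 4 of 4 members, as it did for 53.3% of all genes. Counted over gene totals, it held for 3 of the 4, without cxcr4b.

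Each TRPC2 library decided the value for cxcr4b. Without the first, the log2 fold change was 10.99 (adjusted p = 0.00267 from edgeR), set against 1 read, and without the second it was -0.45 (adjusted p = 0.177), so that the direction turned. For cxcl12a it was 1.45 without the first TRPC2 library, only 0.21 above the median gene of that fit. Without the second it was 4.77, or 3.44 above the median gene. Without the second, cxcr4a lay 3.43 and cxcl12b 3.6 above the median gene, and without the first both are set against a library with no read. With 1 TRPC2 library left, its spread is taken from the OMP libraries, and 32.6% of all genes were called higher in OMP without the first and 34.9% without the second. Without the first OMP library, where 0.582% of genes were called higher in OMP, or without the second (0.272%), none of the 4 passed in edgeR. Other tests moved some calls. DESeq2 put cxcr4a and cxcl12b past 0.05, with 12.6% of all genes called higher in OMP. On log2(RPM + 0.5), limma put cxcr4a past it (23.5% of all genes), and on log2(RPM + 0.1) both cxcr4a and cxcl12b (25.4%). With the replicate number as a block, edgeR put cxcl12a past it (1.56%).

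**Figure D3:**
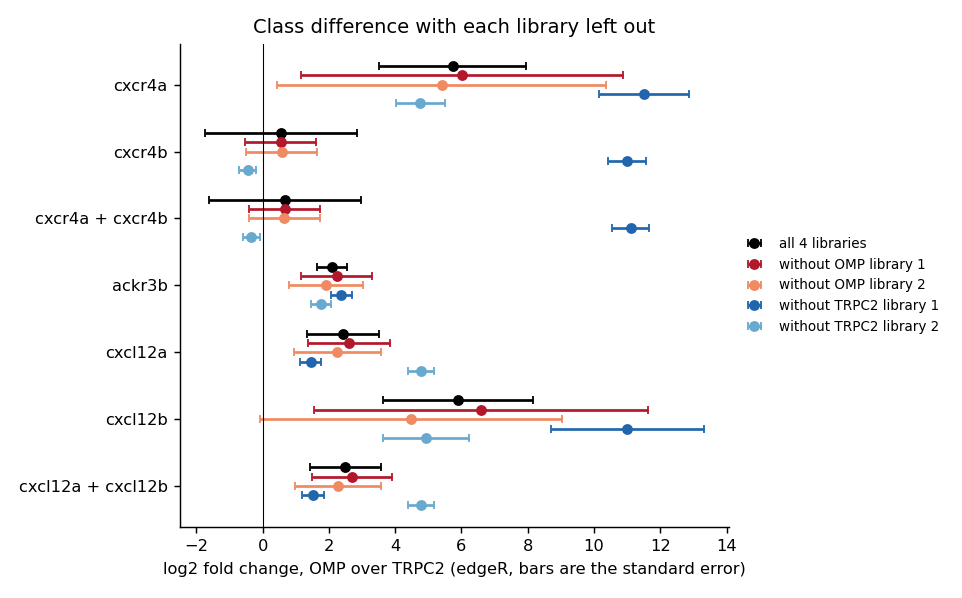
Log2 fold change of OMP over TRPC2 from edgeR for the receptor and ligand genes, ackr3b and the sums of duplicates. Values are with all 4 libraries and with each left out. Bars are an approximate standard error, taken back from the F statistic of the test. cxcr4b moves from -0.45 to 10.99 with the TRPC2 library that is left in, while ackr3b stays between 1.75 and 2.38. Set against the median gene of each fit, ackr3b lies from 0.42 above it, without the second TRPC2 library, to 1.7 above it, without the first OMP library. Values for cxcr4a and cxcl12b without the first TRPC2 library are set against a library with no read and estimate no fold.

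Genes of neuronal precursors and of outgrowing neurons were listed beside the receptor. The 4 with the smallest p had TRPC2 means above those of OMP. The proneural gene neurod1 was at 88.1 and 76.8 RPM in the OMP pair and 265 and 157 RPM in the TRPC2 pair, and ebf3a, a factor of OSN differentiation, at 397 and 287 RPM and at 723 and 1006 RPM (adjusted p = 0.0721 from edgeR for each). tubb5, a neuronal tubulin, was at 759 and 516 RPM in the OMP pair and 986 and 3073 RPM in the TRPC2 pair, and sox11a, a factor of young neurons, at 191 and 123 RPM and at 334 and 183 RPM. Other genes of the list were looked up after cxcr4b. The proneural gene neurog1 was at 8.52 and 4.52 RPM in the OMP pair and 2.33 and 0.25 RPM in the TRPC2 pair, and neurod4, a factor of differentiating precursors, at 40.8 and 35.4 RPM in the OMP pair and 66.3 and 9.86 RPM in the TRPC2 pair. Like cxcr4b, both were lower in the second TRPC2 library than in the others. In contrast gap43, a growth cone protein, was at 103 and 426 RPM in TRPC2, and stmn2b, a microtubule regulator of growing axons, at 106 and 871 RPM, against 185 and 83.6 RPM and 136 and 53.2 RPM in OMP. These were highest in the second TRPC2 library. Over the 17 genes of this list 9 were lower and 8 higher in the second TRPC2 library than in the first. Adjusted over all genes, 0 of the 17 passed with edgeR, and 0 had an unadjusted p under 0.05 on the OMP side and 6 on the TRPC2 side. Over all tested genes the shares with such a p were 23.3% on the OMP side and 7.18% on the TRPC2 side.

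A list of 22 cell cycle genes was added after mcm6 and other genes low in the second TRPC2 library had been seen. All 22 were lower in that library than in the first, among them mki67, a marker of dividing cells, at 228 and 29.5 RPM, and pcna, the replication clamp, at 250 and 87.1 RPM. The summed level was 1578 and 1438 RPM in OMP and 1425 and 257 RPM in TRPC2, lowest in the library with 1 read of cxcr4b. Single genes differed from that sum. For 14 of the 22 genes both TRPC2 libraries were below both OMP libraries, as for 53.3% of all genes. Among these mcm3, another helicase subunit, was at 44.5 and 40.7 RPM in OMP and already low, at 3.21 RPM, in the first TRPC2 library, with 0.93 RPM in the second. Of the 22 genes, 5 had been seen beforehand, and the other 17 were also lower, with a median difference of -1.98 on the log2(RPM + 0.5) scale. Of 6120 genes above 10 RPM on average in TRPC2, 3217 were lower and 2902 higher in that library. The part of dividing cells in the cxcr4b values was not tested.

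Other cells that use these genes were followed through marker lists. Leukocytes, which carry Cxcr4, had a summed level of 159 and 221 RPM over 21 genes in OMP and of 86.4 and 107 RPM in TRPC2. The leukocyte antigen gene ptprc was at 6.84 and 5.61 RPM in the OMP pair and 18.9 and 3.87 RPM in the TRPC2 pair. mpeg1.1, of macrophages, was at 17.9 and 32.4 RPM in the OMP pair and 0.01 and 5.67 RPM in the TRPC2 pair, and mpx, of neutrophils, had no read in TRPC2. In contrast the lysozyme gene lyz, of neutrophils and macrophages, was at 3.24 and 3.47 RPM in the OMP pair and 48.4 and 10.4 RPM in the TRPC2 pair. The higher leukocyte sum in TRPC2 was in the library with 1 cxcr4b read. Single genes differed from that sum, with 13 of the 21 higher and 6 lower in that library than in the first. Endothelial genes, set beside cxcr4a, summed to 92.9 and 70.8 RPM over 19 genes in OMP and to 12.9 and 16.2 RPM in TRPC2. Of the defining endothelial genes, kdrl and fli1a had no read in either TRPC2 library and were at 1.97 and 1.37 RPM and at 3.35 and 2.04 RPM in OMP. Others were read in TRPC2, with 12 of the 19 genes read in the first library and 10 in the second. The classes did not overlap for 16 of the 19 genes, each higher in OMP, as were 53.3% of all genes.

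Mesenchymal genes were set beside the ligands. Their sum was 1239 and 1549 RPM over 16 genes in OMP and 25.1 and 29.9 RPM in TRPC2, and 14 of the 16 were higher in both OMP libraries, against 53.3% of all genes. The collagen genes col1a1a, at 380 and 494 RPM in the OMP pair and 0 and 1.21 RPM in the TRPC2 pair, and col1a2, at 317 and 421 RPM and at 0.24 and 5.81 RPM, were higher in the second TRPC2 library than in the first. col1a1b, the gene of this list with the smallest p, ran the other way in TRPC2, at 8.16 and 4.65 RPM, and was at 408 and 503 RPM in OMP (adjusted p = 0.0721 from edgeR). The matrix gene dcn, at 34.4 and 43.3 RPM in the OMP pair and 0 and 2.68 RPM in the TRPC2 pair, was higher in the second TRPC2 library. Over the list 10 genes were higher in the second TRPC2 library than in the first, 4 were lower and 2 equal. Skin and periderm genes summed to 4644 and 7562 RPM in OMP and to 1560 and 902 RPM in TRPC2, and brain and glia genes to 1920 and 1946 RPM and to 332 and 213 RPM. Red blood cell genes, mostly globins, summed to 10827 and 108701 RPM in OMP and to 0.4 and 5.98 RPM in TRPC2. The sum of the neural crest and pigment genes ran the other way, at 111 and 127 RPM over 18 genes in OMP. In TRPC2 it was 1512 and 5020 RPM, highest in the library with 1 cxcr4b read, but gch2 alone was at 1279 and 4521 RPM there. Of the 18 genes, 7 were higher in both TRPC2 libraries, against 5.61% of all genes. Another 6 were higher in both OMP libraries, against 53.3%. The part of any of these cells in the chemokine values was not tested, and in sorted pools fewer cells of a type and less RNA per cell cannot be told apart.

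**Figure D4:**
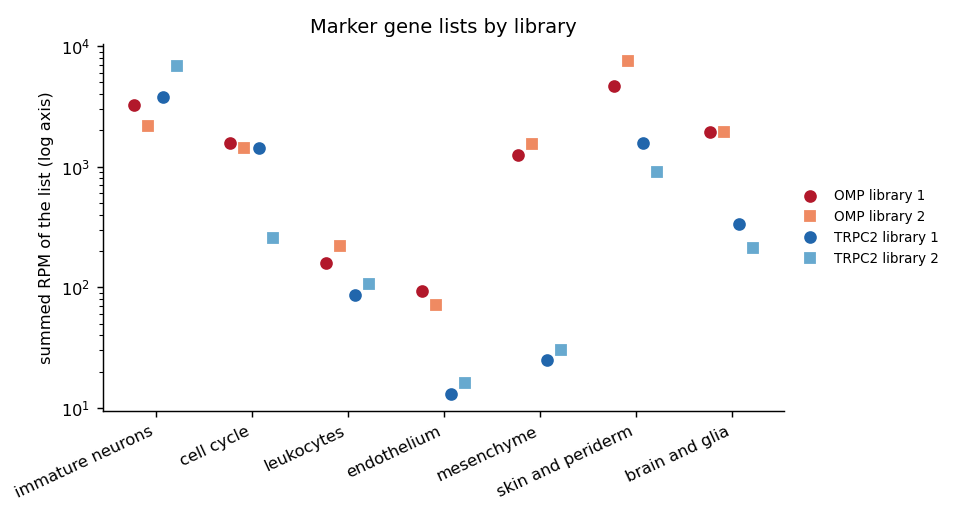
Summed RPM (log axis) of 7 marker gene lists in each library. The summed cell cycle genes are between 1425 and 1578 RPM in 3 libraries and at 257 RPM in the second TRPC2 library, although 14 of the 22 genes are lower in both TRPC2 libraries than in both OMP libraries, and mesenchyme, endothelium, skin and brain lists are lower in both TRPC2 libraries than in both OMP libraries.

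Downstream of Cxcr4, 32 genes for G protein subunits, arrestins, receptor kinases, sorting proteins and effectors were examined. Of these, 0 passed an adjusted p of 0.05 with edgeR. On the OMP side 6 of the 32 had an unadjusted p under 0.05, against 23.3% of all tested genes. On the TRPC2 side 3 did, against 7.18%. The median log2 fold change of the list was 0.098, against 0.49 over all genes. Each OMP library exceeded each TRPC2 library for 20 of the 32, near the 53.3% of all genes, and the opposite held for 2, against 5.61% of all genes. The inhibitory subunit genes through which Cxcr4 signals were read in every library for gnai1, at 75.4 and 72.4 RPM in the OMP pair and 47.7 and 61.3 RPM in the TRPC2 pair, and for gnai2a, at 50.4 and 57.8 RPM and at 17.9 and 12 RPM. gnai3 was at 1.05 and 1.73 RPM in the OMP pair, without a read in TRPC2.

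Of the arrestins, which uncouple and internalize the receptors, arrb2b was at 107 and 130 RPM in the OMP pair and 44.5 and 27.3 RPM in the TRPC2 pair, and arrb1 was at 3.19 and 1.89 RPM in OMP with no read in TRPC2. The ubiquitin ligase gene itchb, whose mammalian relative marks CXCR4 for degradation, was at 0.93 and 0.68 RPM in the OMP pair and 0.01 and 0 RPM in the TRPC2 pair. The gene with the smallest p in this list, gnao1b, a G protein subunit of microvillous OSNs, was at 190 and 194 RPM in the OMP pair and 485 and 365 RPM in the TRPC2 pair (adjusted p = 0.0721 from edgeR). Thus gnai1, gnai2a, gnao1b and arrb2b were read in the second TRPC2 library, where cxcr4b had 1 read, and gnai3, arrb1 and itchb were not.

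Of 8 genes for proteins that bind or modify Cxcl12 or its receptors, 5 could be tested, and 0 of the 5 passed with edgeR. In each direction 1 of the 5 had an unadjusted p under 0.05 from edgeR. On the OMP side it was cd74b, at 0.4 and 0.64 RPM in the OMP pair and without a read in TRPC2, and on the TRPC2 side hmgb1a. Over all tested genes 23.3% had such a p on the OMP side and 7.18% on the TRPC2 side. The nuclear protein gene hmgb1a, whose mammalian product forms a complex with CXCL12, was at 322 and 316 RPM in the OMP pair and 610 and 673 RPM in the TRPC2 pair (adjusted p = 0.0721 from edgeR). For its duplicate hmgb1b the classes overlapped, at 376 and 363 RPM in the OMP pair and 576 and 240 RPM in the TRPC2 pair. cxcl14, a related chemokine, was at 29.2 and 26.8 RPM in the OMP pair and 0.02 and 1.55 RPM in the TRPC2 pair (adjusted p = 0.206 from edgeR). In TRPC2 it was higher in the second library, as cxcl12a was. The gene for the protease that trims Cxcl12, dpp4, did not exceed 0.11 RPM in any library, and mif, for another ligand of CXCR4 in mammals, was between 14 and 44.5 RPM in all 4.

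The files hold 16 further chemokine receptor genes by symbol, ackr3b included. Of these, 4 were above 1 RPM on average in a class, and 12 of the 16 were higher in both OMP libraries, with 0 in the opposite direction, against 53.3% and 5.61% of all genes. Besides ackr3b these 4 were ccr6a, at 2.32 and 4.17 RPM in the OMP pair and 0.42 and 0 RPM in the TRPC2 pair, ccr9a, at 2.85 and 9.99 RPM and at 0 and 1.11 RPM, and cxcr3.2, at 3.57 and 4.17 RPM and at 0 and 0.06 RPM. Apart from cxcr4b and ackr3b, none of the receptor genes taken by symbol thus reached 10 RPM in any library. The nearest was ccr9a, at 9.99 RPM in the second OMP library. In TRPC2, 12 of the 16 had no read in the first library and 12 in the second.

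Among 47 further ligand genes, 10 were above 1 RPM on average in a class. Of the 47, 42 had a read in any library and 19 passed the filter of edgeR. In both OMP libraries 23 of the 47 were higher, near the 53.3% of all genes. Next to cxcl14, ccl25b was at 3.16 and 1.62 RPM in the OMP pair and 0.03 and 0.01 RPM in the TRPC2 pair. cxcl18b, a chemokine of inflamed tissue in zebrafish, was at 9.65 and 4.52 RPM in the OMP pair and 5.47 and 3.81 RPM in the TRPC2 pair, with the classes overlapping. cxcl19 was at 1.11 and 1.41 RPM in OMP and cxl34b.11 at 1.08 and 4.41 RPM, and neither had a read in TRPC2. ccl44 was at 1.58 and 1.38 RPM in the OMP pair and 0.05 and 0 RPM in the TRPC2 pair, and ccl34a.4 at 6.39 and 6.54 RPM and at 0 and 0.97 RPM.

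**Figure D5:**
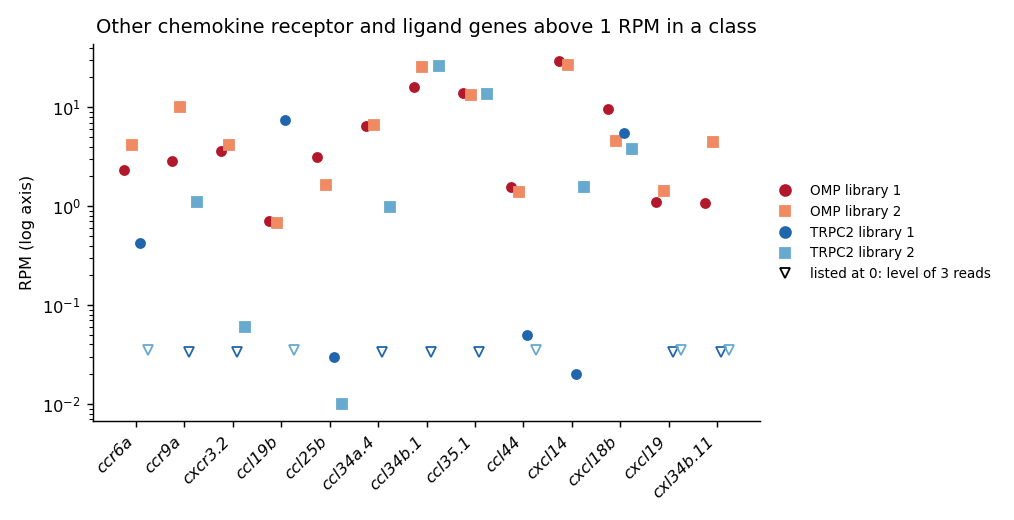
RPM (log axis) in each library of the other chemokine receptor and ligand genes above 1 RPM on average in a class. Filled symbols are libraries with a value, and open triangles are libraries listed at 0, drawn at the level of 3 reads. Most genes are higher in OMP, while ccl34b.1 and ccl35.1 are at 0 in the first TRPC2 library only and ccl19b is highest there.

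Genes whose levels over the 4 libraries were nearest to each member were found by Euclidean distance of log2(RPM + 0.5) among 14540 tested genes with an ordinary symbol, as a description over 4 points. Nearest to cxcr4b were dlx5a (distance 0.725), at 60.2 and 60.4 RPM in the OMP pair and 48.3 and 0.25 RPM in the TRPC2 pair, b3gnt5a (0.914), at 46.3 and 76.4 RPM and at 58.1 and 0.15 RPM, and plecb (0.965), at 66.2 and 38.3 RPM and at 22.8 and 0.06 RPM. Of these, dlx5a and b3gnt5a had already been seen among the genes low in the second TRPC2 library. Nearest to cxcl12a were six3a (0.643), a homeobox factor of the forebrain and eye, at 70.3 and 60.1 RPM in the OMP pair and 0.89 and 8.55 RPM in the TRPC2 pair, then rlim (0.686) and ssr1 (0.816). The genes nearest to cxcr4a were actc1b (0.0968), a muscle actin, slc2a12 (0.127) and tmem255a (0.165), and those nearest to cxcl12b were adora2aa (0.132), ftr24 (0.174) and cxl34b.11 (0.185). In TRPC2 both members were at most at 0.09 RPM, under the added 0.5, so these distances rest mainly on the OMP values. They are not comparable with the distances for cxcr4b and cxcl12a.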

How the data were processed

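RNA-seq was made from 4 libraries, 2 per class. For mapping and gene counting the authors used STAR and VERSE on GRCz10. The sources used here give no versions, annotation or strand setting. Per gene, whole-number counts were deposited, as were RPM rounded by the authors to 2 decimals, for which the counts are divided by a larger library total. The gene counts were 56.0% to 75.9% of that total.

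OMP was tested against TRPC2 with edgeR 4.0.16 in R 4.3.3 (glmQLFit, glmQLFTest, TMM scaling). Genes were kept by filterByExpr with the class given, the model held only the class, and p-values were adjusted by Benjamini-Hochberg. Standard errors given for edgeR are approximate, the absolute log2 fold change over the square root of the F statistic. The test was checked on simulated data. Sums of duplicates were added as further features. The labels call libraries biological replicates without naming separate clutches, so the p-values rest on a spread between libraries that may be technical in part. Shares and ratios carry exact 95% intervals. Alternatives covered normalization, filters, DESeq2 1.42.0, limma 3.58.1, pseudocounts of 0.5 and 0.1 RPM, a replicate block, red blood cell genes and each library left out.

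The members and gene lists were chosen with earlier results of these data known. Genes named are the members, ackr3b, chemokine genes above 1 RPM on average in a class, in each list the 4 of smallest p at most, the 3 nearest genes per member, and label checks. Other genes, among them ACKR3_(2_of_2), ical1, the cell cycle genes, dld, esrp1, mif, dpp4, gnai1, gnai2a, arrb2b, neurog1, neurod4, gap43, stmn2b, and those named as markers for a defining role, were chosen after their values were seen. ackr3a was looked for, but no gene of that symbol was among those measured. The sources used here do not say whether ACKR3_(2_of_2) is that gene. No transcript lengths were used, so ratios and shares of reads between genes do not give the relative abundance of the transcripts. They are comparable between libraries of a class only where amplification acted alike, which was not tested. Between classes the rounds of amplification differed.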

Additional observations from a re-analysis of the deposited data

How the results depend on the processing

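With 2 libraries per class and a wide spread in TRPC2, no class difference of the 4 members passed 0.05 in edgeR. Over the 4 members and 13 alternatives, 38 of 52 values kept direction and side of the threshold, 13 passed it and 1 turned. DESeq2 put cxcr4a (5.68) and cxcl12b (5.86) past 0.05, limma on log2(RPM + 0.5) put cxcr4a past it (3.07), and limma on log2(RPM + 0.1) put cxcr4a (4.91) and cxcl12b (4.25) past it. With the replicate block cxcl12a (3.16, adjusted p = 0.0258 from edgeR) and the ligand sum (3.2) passed. cxcr4b moved from 0.56 to 3.46 and 4.56 with limma and 4.32 with the block without passing. Only the numbers 1 and 2 are shared, and same-numbered libraries deviated together with a correlation of -0.00342 across genes. With a library left out, log2 fold changes ran from 4.76 to 11.5 for cxcr4a, from -0.45 to 10.99 for cxcr4b, from 1.45 to 4.77 for cxcl12a, from 4.47 to 11 for cxcl12b, from -0.34 to 11 for the receptor sum and from 1.52 to 4.78 for the ligand sum. Upper ends for cxcr4a and cxcl12b are against a TRPC2 library with no read. ackr3b passed with DESeq2, limma and either TRPC2 library left out, but not with the block.

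Against 0 genes past 0.05, DESeq2 called 2654 higher in OMP and 1141 in TRPC2, limma 4945 and 165 with a pseudocount of 0.5 RPM and 5350 and 175 with 0.1 RPM, and the replicate block 329 and 268. A library left out gave 60 to 8023 higher in OMP and 50 to 3773 in TRPC2. The cause was not tested, except that a lone library takes its spread from the other class. The alternative that divides reads by coding length was not run, as no lengths were used here.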

Other observations

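A few chemokine ligands separated the TRPC2 libraries from each other. ccl34b.1 was at 16.1 and 25.7 RPM in OMP, at 0 in the first TRPC2 library and at 26.1 RPM in the second. ccl35.1 was at 14 and 13.3 RPM in OMP, at 0 in the first TRPC2 library and at 13.6 RPM in the second. Both thus lay at the OMP level in the library that held 1 cxcr4b read. The macrophage gene mfap4, at 25.2 and 32.8 RPM in the OMP pair and 0 and 10.2 RPM in the TRPC2 pair, had the same library at 0. ccl19b ran the other way, at 0.71 and 0.67 RPM in the OMP pair and 7.43 and 0 RPM in the TRPC2 pair. lyz, the lysozyme of neutrophils and macrophages, was at 3.24 and 3.47 RPM in the OMP pair and 48.4 and 10.4 RPM in the TRPC2 pair, the one listed leukocyte gene higher in both TRPC2 libraries. For none of these genes was the difference between the TRPC2 libraries tested.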
